A study of Mus musculus with 24 samples.

Results

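The genes described here are 37 genes of the lysosome and of the transcription factors that control it, taken as the rows of the deposited expression table whose gene name is on a fixed list. All 37 were found among the 43629 gene identifiers of the table, and each passed the filter on low values. They were 9 cathepsins, 9 other hydrolases, 3 lumenal cofactors, 8 membrane proteins, 4 subunits of the proton pump, the transcription factors Tfeb, Tfe3 and Mitf, and the autophagy receptor Sqstm1. Total RNA was sequenced from bone marrow-derived macrophages (BMDMs), which are cells grown out of bone marrow into macrophages in culture, from CITED2 knockout (KO) and wild type (WT) mice. CITED2 is a nuclear protein that acts through the coactivators CBP and p300 rather than by binding DNA, and the title of the series names its role in the inflammatory response of macrophages as the question. The mice were of the C57BL/6 strain at postnatal week 10. Cells of each genotype were either left as controls or treated with LPS, a bacterial cell wall component, with IFNg, the cytokine interferon gamma, or with IL4, the cytokine interleukin 4. Each of the 8 groups, KO control, WT control, KO LPS, WT LPS, KO IFNg, WT IFNg, KO IL4 and WT IL4, held 3 libraries. How the gene was deleted, the doses and the times of treatment are not given in the sources used here. Neither is whether the 3 libraries of a group came from separate mice or cultures, so the tests speak for the spread among the libraries, which may be technical.

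The lysosome is the acid compartment in which macrophages digest what they engulf. A vacuolar proton pump acidifies it, hydrolases such as the cathepsins break down proteins, sugars and lipids inside it, cofactors present lipids to those enzymes, and heavily glycosylated membrane proteins line and guard its wall. Tfeb, Tfe3 and Mitf are related helix-loop-helix factors that bind E-box sequences in the promoters of many lysosomal genes and raise their transcription when nutrient signalling at the lysosome is low.

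Reads per library ran from 1478507 in KO LPS replicate 1 to 73409343, with a median of 29551522.5, and the next lowest library held 7818719 reads. Cited2 itself was at 1.26%, 1.35%, 0.558% and 1.02% of the WT mean in KO control, KO LPS, KO IFNg and KO IL4 libraries. The summed level of 8 macrophage markers was 88074 to 93336 in KO control and 99547 to 105245 in WT control libraries. It was 145437 to 168922 in KO LPS, 166646 to 169595 in WT LPS, 115698 to 119034 in KO IFNg, 135059.7 to 136711 in WT IFNg, 165284 to 169110.1 in KO IL4 and 159445 to 161689 in WT IL4 libraries. Of these 8 markers, 0 were called higher and 4 lower in KO control, and 1 higher and 4 lower in KO LPS cultures. In KO IFNg cultures 2 were called higher and 4 lower, and in KO IL4 cultures 2 higher and 1 lower. Over all tested genes, 7.16% were called in control, 22.2% in LPS, 9.05% in IFNg and 9.29% in IL4 cultures. The sum thus moved with genotype, and its part in the values that follow was not tested. Over the 24 libraries, summed levels ran from 475 to 2824 for 12 neutrophil genes, 233 to 507 for 6 fibroblast genes and 4.08 to 846 for 6 dendritic cell genes. They ran from 0 to 26.9 for 5 mast cell and basophil genes, 9.52 to 37.6 for 6 B cell genes and 0 to 23.6 for 5 T and NK cell genes. The deposited normalisation left the libraries with unequal sums, 31791425 to 37512449 with LPS and 25510874 to 27192151 with IFNg, against 18992840 to 20003481 in control libraries. Scaling every library to the same sum instead shifted the median log2 change of all genes by -0.61 in KO and -0.59 in WT cells for LPS, and by -0.35 in KO and -0.36 in WT cells for IFNg. The shift was -0.14 for KO against WT in LPS and less than 0.1 in size in the other comparisons of 2 groups. For the 37 genes alone the median shift was larger, -0.87 in KO and -0.77 in WT cells for LPS and -0.44 in both for IFNg. The direction of a change with LPS or IFNg of up to about that size depends on the choice of scaling. Whether the counting used strand is not given in the sources used here; 16 of the 37 genes overlap another gene, 4 of them on the same strand.

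The 37 genes together took a large share of all reads, and the share depended on both treatment and genotype. It was 11.9 ± 0.332% in KO control and 10.7 ± 0.119% in WT control libraries (SD, n = 3 in each group). With IL4 it was 10.6 ± 0.331% in KO and 9.96 ± 0.0896% in WT libraries. It was lower with IFNg, at 7.96 ± 0.0901% in KO and 6.79 ± 0.127% in WT libraries, and lowest with LPS, at 5.79 ± 0.0769% in KO and 5.66 ± 0.132% in WT libraries. The 3 KO libraries lay above the 3 WT libraries in control, IFNg and IL4 cultures, and the genotypes overlapped with LPS. In bulk cultures such as these, fewer cells of a type and less RNA per cell cannot be told apart. Ctsb, Ctsd, Psap and Ctss held 62.2% to 69.3% of the summed level of the 37 genes in each group. Per kilobase of exon, the aspartic protease gene Ctsd stood highest in WT control cells, at 154422 normalised reads per kilobase, followed by Psap at 133778, Ctss at 122689 and Ctsb at 77283. Tfeb was lowest, at 139 per kilobase, with Glb1 next at 246 and Mcoln1 at 249. Across the 8 group means, Lamp1 varied least, by 1.11-fold between its lowest and highest group, and Ctsc most, by 32.0-fold, with Tfeb at 17.0-fold and Atp6v0d2 at 6.18-fold.

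**Figure D1:**
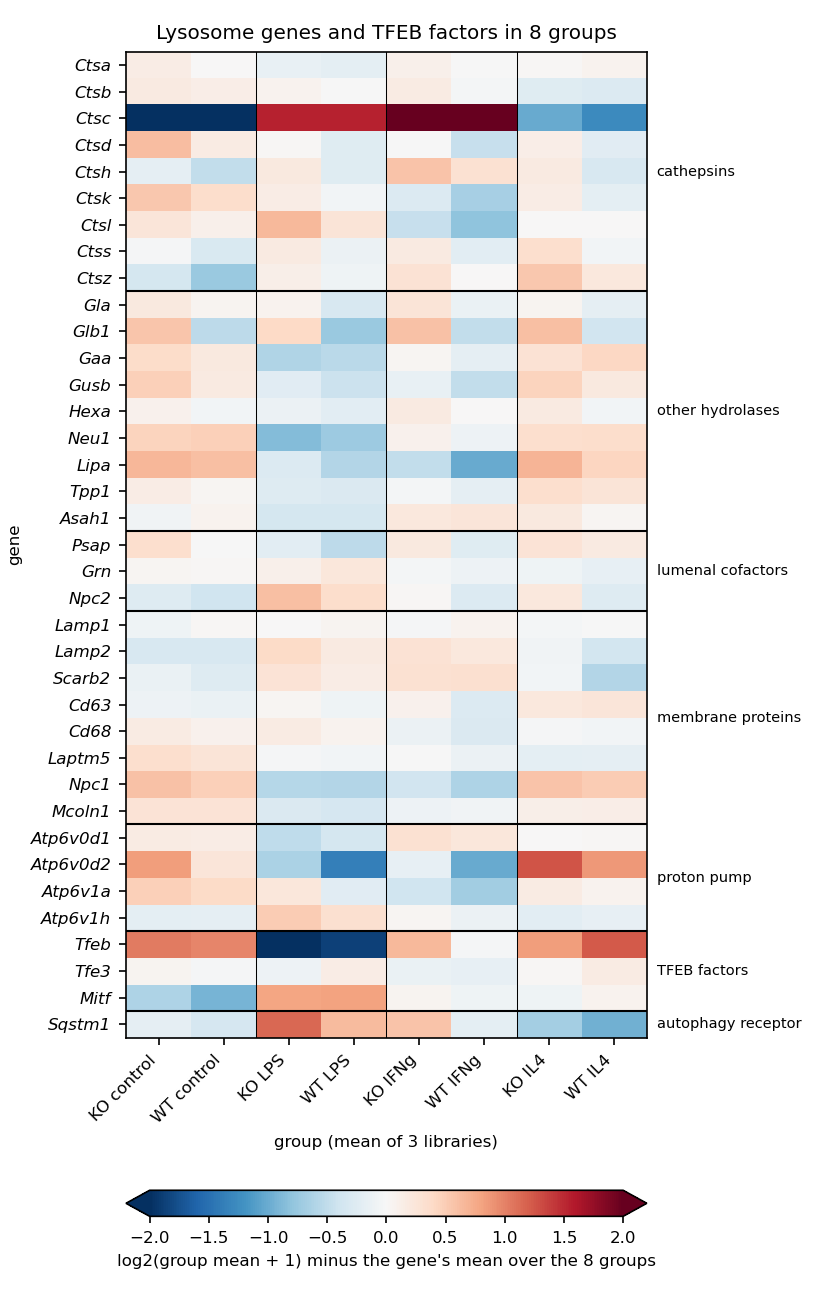
Level of the 37 genes in the 8 groups, shown in colour as log2(group mean + 1) minus the gene's mean over the 8 groups; rows are genes ordered by role, and columns are group means of 3 libraries with KO left of WT in each treatment. The broadest shifts are between treatments, with Ctsc and Mitf up and Tfeb and Lipa down in LPS libraries, and the row of Glb1 alternates between KO and WT in all 4 treatments.

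Promoter windows were examined for the E-box letters because these factors bind there. The sequences shown are those of Gla, Ctsd, Glb1 and Atp6v1a, which were called higher in KO cells in at least 2 treatments, and of Mcoln1 and Lamp1, which were called in no treatment. RefSeq windows (GRCm38.p6, 250 bases before to 50 bases after the gene start) were matched for 31 of the 37 genes, and none was matched for Ctsb, Ctsh, Asah1, Npc1, Atp6v0d2 or Atp6v1h. Each line reads 5′ to 3′ on the gene's strand, and capitals mark CACGTG, or TCACGTGA where the longer form is present. Both motifs read the same on either strand, and CACGTG lies inside TCACGTGA.
Gla promoter, chrX:134600956-134601255, minus strand: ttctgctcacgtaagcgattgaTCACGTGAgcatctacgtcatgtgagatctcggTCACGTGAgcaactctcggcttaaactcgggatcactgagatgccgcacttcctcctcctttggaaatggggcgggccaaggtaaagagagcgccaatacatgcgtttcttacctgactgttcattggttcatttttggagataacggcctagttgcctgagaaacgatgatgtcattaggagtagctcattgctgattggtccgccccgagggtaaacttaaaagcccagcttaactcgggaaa
Ctsd promoter, chr7:142387778-142388077, minus strand: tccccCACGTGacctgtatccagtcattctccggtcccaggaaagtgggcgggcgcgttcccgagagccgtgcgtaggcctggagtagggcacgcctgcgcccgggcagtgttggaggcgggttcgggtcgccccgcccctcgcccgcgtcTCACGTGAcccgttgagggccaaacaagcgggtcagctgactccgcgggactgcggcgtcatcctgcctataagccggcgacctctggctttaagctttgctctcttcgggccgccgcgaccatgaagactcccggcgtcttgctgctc
Glb1 promoter, chr9:114400828-114401127, plus strand: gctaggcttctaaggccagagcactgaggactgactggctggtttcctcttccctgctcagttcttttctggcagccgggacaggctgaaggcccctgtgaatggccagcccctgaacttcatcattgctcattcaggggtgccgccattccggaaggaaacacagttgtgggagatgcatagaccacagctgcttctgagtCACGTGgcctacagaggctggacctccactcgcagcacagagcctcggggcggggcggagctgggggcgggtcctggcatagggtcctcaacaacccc
Atp6v1a promoter, chr16:44139210-44139509, minus strand: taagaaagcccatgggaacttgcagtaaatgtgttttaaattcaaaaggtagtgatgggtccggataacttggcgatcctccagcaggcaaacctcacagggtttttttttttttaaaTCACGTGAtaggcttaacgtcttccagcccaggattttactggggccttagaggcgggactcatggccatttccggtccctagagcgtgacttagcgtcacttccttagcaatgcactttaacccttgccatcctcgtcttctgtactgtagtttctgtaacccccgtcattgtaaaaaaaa
Mcoln1 promoter, chr8:3500269-3500568, plus strand: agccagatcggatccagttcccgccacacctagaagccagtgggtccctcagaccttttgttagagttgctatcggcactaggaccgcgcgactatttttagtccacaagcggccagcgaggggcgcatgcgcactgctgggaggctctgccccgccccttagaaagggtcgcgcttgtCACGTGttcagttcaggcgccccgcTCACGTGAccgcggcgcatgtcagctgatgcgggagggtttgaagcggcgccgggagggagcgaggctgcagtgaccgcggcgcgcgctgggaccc
Lamp1 promoter, chr8:13158911-13159210, plus strand: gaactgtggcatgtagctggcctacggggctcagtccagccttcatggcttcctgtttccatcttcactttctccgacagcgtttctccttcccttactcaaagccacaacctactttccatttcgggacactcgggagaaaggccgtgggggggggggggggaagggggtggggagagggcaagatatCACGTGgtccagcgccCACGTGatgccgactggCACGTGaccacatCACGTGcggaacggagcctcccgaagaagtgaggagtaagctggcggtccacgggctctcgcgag
CACGTG was present in the windows of 10 of the 31 matched genes, namely Ctsa, Ctsd, Ctsl, Gla, Glb1, Gaa, Lamp1, Mcoln1, Atp6v0d1 and Atp6v1a, against 8.09% of the 27025 gene names with a window. TCACGTGA was present in 6 of them, namely Ctsa, Ctsd, Gla, Mcoln1, Atp6v0d1 and Atp6v1a, against 1.12% of those names. A still longer motif, TCACGTGA with a fixed base added at each end, was also searched for. It was present in 0 of the 31 matched genes, against 0.370% of those names. That share is too low for 31 genes to show a lack of it. Counted from the RefSeq gene start, the E-box started 48 bases before it in Glb1 and 131 in Atp6v1a. The distances were 98 and 245 in Ctsd, 194 and 227 in Gla, 45 and 71 in Mcoln1, and 15, 28, 45 and 61 in Lamp1. RefSeq and GENCODE starts can differ: GENCODE starts Atp6v1a at 44139705, so its window lies inside that gene model. The median KO against WT log2 difference over the 10 genes with an E-box was 0.14 in control, 0.16 in LPS, 0.26 in IFNg and -0.0056 in IL4 cultures. Over the 21 genes without one it was 0.11, 0.13, 0.19 and 0.22 in the same order, so the genes with an E-box had the lower median with IL4. With LPS against control, the medians with and without an E-box were -0.28 and 0.0011 in KO cells and -0.40 and 0.042 in WT cells. With equal sums these were -1.14 and -0.87 in KO cells and -1.17 and -0.72 in WT cells. These medians are descriptions of the windows examined.

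The comparison of KO with WT cells asks what the loss of CITED2 did to lysosomal genes in each state of the macrophage. In the deposited scaling, most of the differences that passed the test were increases in KO cells. They lay mostly among cathepsins and other hydrolases, which are also the largest roles on the list, with 9 genes each. Of the 37 genes, 12 rose and 1 fell in KO control cultures, where 7.16% of all 18637 tested genes were called (4.11% higher and 3.05% lower). With LPS, 15 rose and 3 fell, against 22.2% of all genes called (9.7% higher and 12.5% lower). With IFNg, 20 rose and 0 fell, against 9.05% of all genes (4.83% higher and 4.21% lower), and with IL4, 16 rose and 0 fell, against 9.29% (6.14% higher and 3.14% lower). A call is a Benjamini-Hochberg adjusted p below 0.05 in limma, fitted over all tested genes and all 24 libraries on log2(deposited value + 1). The median log2 difference of the 37 genes was 0.11 in control, 0.13 in LPS, 0.21 in IFNg and 0.088 in IL4 cultures, against 0, -0.059, -0.025 and 0 over all tested genes. With equal sums these medians were 0.051, -0.040, 0.15 and -0.0018 for the 37 genes, with those of LPS and IL4 below 0, against -0.055, -0.19, -0.084 and -0.077 over all tested genes. Averaged over the 4 treatments, 22 rose and 2 fell, against 22.3% of all genes called. The 10 genes Ctsd, Ctsh, Ctsk, Ctss, Ctsz, Gla, Glb1, Gusb, Npc2 and Atp6v0d2 were called higher in KO cells in all 4 treatments. This is 27.0% of the 37 genes, against 224 of all 18637 genes (1.20%). The 37 genes were chosen with earlier results of these data known, so these shares are a description and no test of the set. With equal sums, only Ctsh, Ctss, Glb1 and Atp6v0d2 of the 10 kept their call in all 4 treatments. Psap, Lipa and Sqstm1 were called higher in 3 treatments, and 13 genes were called higher in none.

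These counts depended on the scaling and on which libraries set the spread. Scaled to equal sums, 9 rose and 3 fell in control, 9 rose and 11 fell in LPS, 16 rose and 2 fell in IFNg, 13 rose and 2 fell in IL4 cultures, and 17 rose and 6 fell on average. The genes that then lost their call were Ctsk, Gla and Npc2 in control cultures, Ctsd, Ctsk, Ctsz, Gusb, Npc2 and Psap with LPS, Ctsb, Ctsz, Hexa and Tfeb with IFNg, and Ctsc, Lamp2 and Sqstm1 with IL4. Fitting only the 6 libraries compared, 7 of the 13 calls remained in control, 5 of 18 in LPS, 16 of 20 in IFNg and 12 of 16 in IL4 cultures. Without KO LPS replicate 1, the library with the fewest reads, 16 of the 18 calls with LPS remained, and those of Ctsz and Atp6v0d1 were lost. Lamp2 (0.28, adjusted p = 0.0210) and Atp6v1h (0.26, adjusted p = 0.0237) were then called higher in KO cells.

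**Figure D2:**
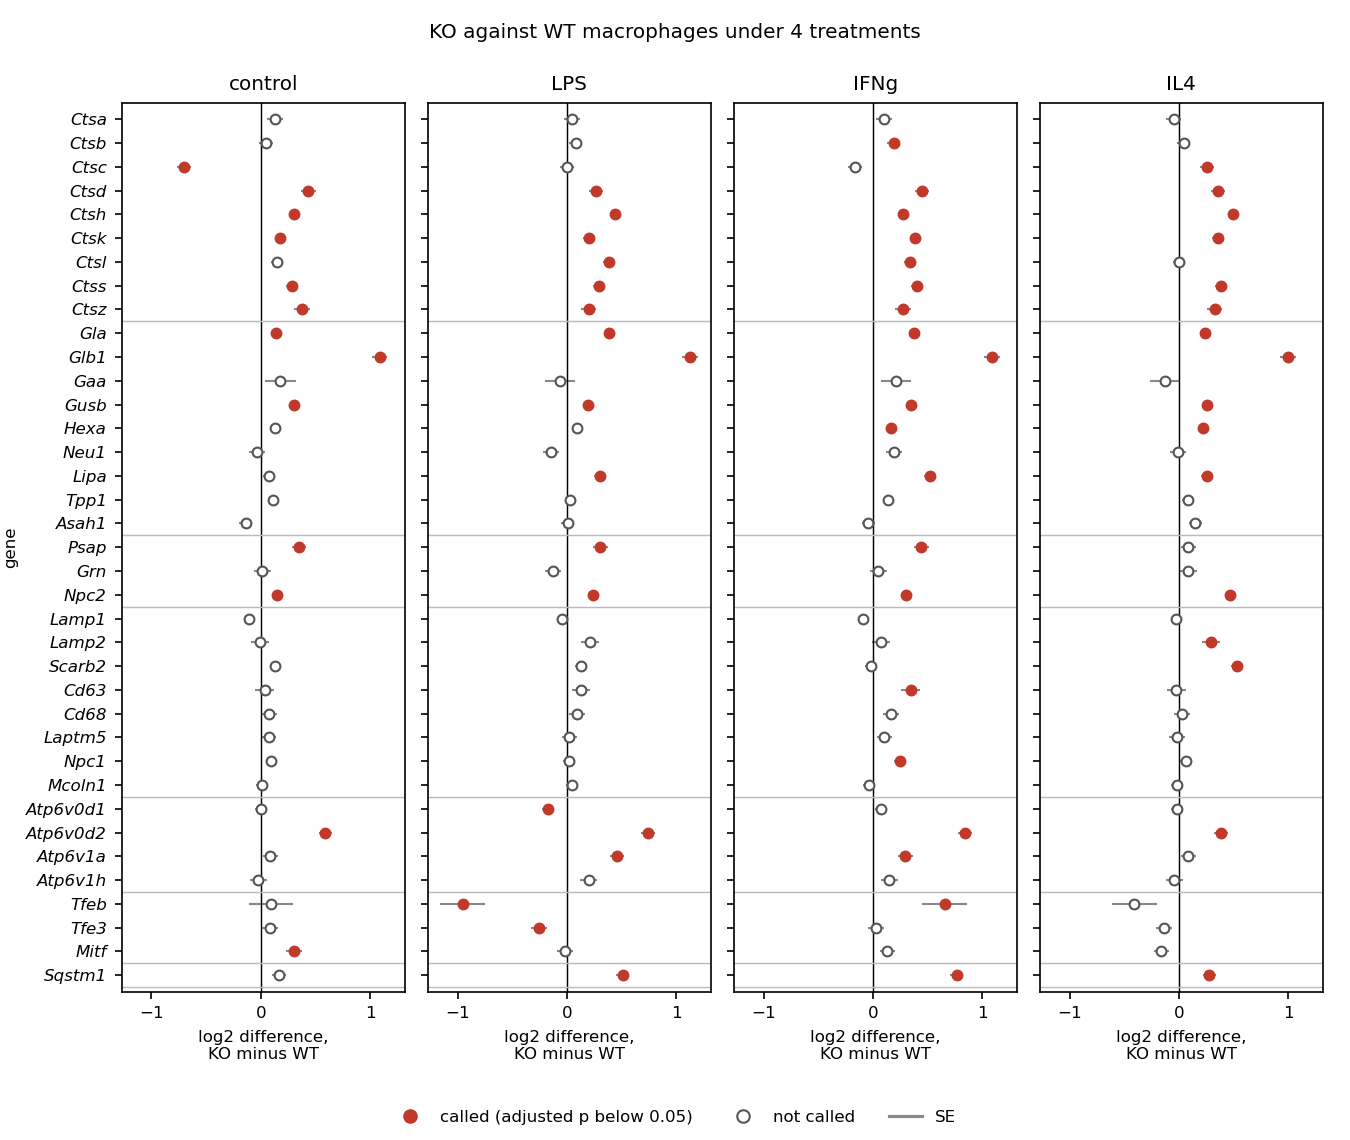
The log2 difference of KO over WT cells for each of the 37 genes, by role, in control, LPS, IFNg and IL4 cultures; points are limma estimates, bars are standard errors (3 KO and 3 WT libraries a treatment), and filled points passed the adjusted p threshold of 0.05. Glb1 lies near 1 in all 4 treatments, Atp6v0d2 between 0.38 and 0.84, and Ctsc changes side between control and IL4 cultures.

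Among the 9 cathepsins, 5 rose and 1 fell in KO control cultures, 6 rose with LPS, 7 with IFNg and 6 with IL4. Ctsd, the main aspartic protease of the lysosome, had 502310.1, 517738 and 455649 in KO libraries, against 352238, 366462 and 370438 in WT libraries in control cultures (log2 difference 0.44 ± 0.065 SE, adjusted p = 4.46e-05). With IFNg, Ctsd had 329686, 310675 and 323693 in KO libraries, against 237399, 226124 and 241197 in WT libraries (log2 difference 0.45 ± 0.065 SE, adjusted p = 2.40e-05). The KO libraries of Ctsd all lay above the WT libraries in both states. In the other treatments Ctsd differed by 0.27 with LPS (adjusted p = 0.00403) and 0.36 with IL4 (adjusted p = 0.000372). Ctsd overlaps a protein-coding gene, Gm49369, on the same strand, and Ctsl a pseudogene, Gm49230. Neither of these is analysed here, and their part in the reads of Ctsd and Ctsl was not tested. Ctsh, an aminopeptidase, had 8226, 8622 and 8507 in KO libraries, against 5937, 6006 and 6007 in WT libraries with IL4 (log2 difference 0.50 ± 0.040 SE, adjusted p = 1.45e-09). With LPS its levels were 8458, 8687 and 8721 in KO libraries, against 6212, 6379 and 6457 in WT libraries (log2 difference 0.44 ± 0.040 SE, adjusted p = 1.18e-08). The genotypes did not overlap for Ctsh in any treatment, and its difference was 0.31 in control and 0.28 in IFNg cultures. Ctsz, a carboxypeptidase, had 32620.5, 35828 and 31214 in KO libraries, against 24710.0, 25189.8 and 26708 in WT libraries in control cultures (log2 difference 0.38 ± 0.071 SE, adjusted p = 0.000732). It was also called with LPS (0.20), IFNg (0.28) and IL4 (0.33). The LPS call was lost in 13 of the 24 fits that left out 1 library (adjusted p up to 0.216), and the IFNg call without KO IFNg replicate 1 or WT IFNg replicate 2 (adjusted p up to 0.0880).

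Ctss, which trims the invariant chain of MHC class II molecules, had 265077, 256263 and 257929.7 in KO libraries, against 194198, 198013 and 203861 in WT libraries with IL4 (log2 difference 0.39 ± 0.057 SE, adjusted p = 2.89e-05). Its log2 difference was 0.29 in control, 0.30 in LPS and 0.40 in IFNg cultures. KO libraries were thus higher for Ctss in every treatment. A pseudogene on the same strand inside it, Hmgb1-ps5, averaged 25.1 in KO control and 17.4 in WT control libraries. Its highest group mean was 43.3, in KO IFNg libraries, where its log2 difference from WT was 0.85 (adjusted p = 0.0722). Averaged over the 4 treatments its difference was 0.58 and was called (adjusted p = 0.00405), though in no single treatment. The part of Hmgb1-ps5 in the reads of Ctss was not tested. Ctsk, the collagen-degrading cathepsin of osteoclasts, differed by 0.18 in control, 0.20 in LPS, 0.38 in IFNg and 0.36 in IL4 cultures (adjusted p = 0.0251, 0.00469, 5.43e-06 and 1.29e-05, in that order). The control call was lost without KO control replicate 1 or 2 or WT control replicate 2 or 3 (adjusted p up to 0.140). The summed level of 8 other osteoclast genes was 2134 to 2172 in KO control and 2313 to 2477 in WT control libraries, and 2825 to 3195 in KO IL4 and 2938 to 3072 in WT IL4 libraries. Ctsl, a broad endopeptidase, was called with LPS (0.39) and IFNg (0.34) and had a difference of 0.0021 with IL4 (adjusted p = 1.00). Ctsb, another abundant cysteine protease, differed by 0.19 with IFNg (adjusted p = 0.0455), a call lost in 17 of the 24 fits that left out 1 library (adjusted p up to 0.139). Ctsa, the carboxypeptidase that shields Glb1 and Neu1 from breakdown, was called in no treatment.

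Ctsc stood apart from the other cathepsins. It encodes the dipeptidyl peptidase that activates granule serine proteases, and it was lower in KO control cells, with 1840.4, 1796 and 2022 in KO libraries, against 3125, 3244 and 2841 in WT libraries (log2 difference -0.70 ± 0.064 SE, adjusted p = 3.24e-08). With IL4 it was higher in KO cells, with 7370.3, 6217 and 6441 in KO libraries, against 5565, 5483 and 5645 in WT libraries (log2 difference 0.26 ± 0.064 SE, adjusted p = 0.00854). The groups did not overlap in either state, although the IL4 call was lost without KO IL4 replicate 1 (adjusted p = 0.0980). With LPS its levels were 38887, 39795 and 38481 in KO libraries, against 38159, 36740.1 and 42405 in WT libraries (log2 difference 0.00081 ± 0.064 SE, adjusted p = 1.00). With IFNg they were 52349.8, 53648 and 55158 in KO libraries, against 58261, 63068 and 59685 in WT libraries (log2 difference -0.17 ± 0.064 SE, adjusted p = 0.126). In both of these states Ctsc was many times its control level in either genotype and KO and WT did not pass the test of a difference.

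Among the 9 other hydrolases, 3 rose in KO control cultures, 4 with LPS, 5 with IFNg and 5 with IL4, and 0 fell. Glb1, the beta-galactosidase whose activity is used as a stain for senescent cells, showed the largest genotype difference of the 37 genes in each treatment. It had 1541, 1660.3 and 1508 in KO libraries, against 704, 782 and 730.3 in WT libraries in control cultures (log2 difference 1.09 ± 0.072 SE, adjusted p = 1.45e-10). With LPS it had 1205, 1467 and 1528 in KO libraries, against 628, 642 and 640.3 in WT libraries (log2 difference 1.13 ± 0.072 SE, adjusted p = 3.51e-11). The KO level was more than 2 times the WT level in both. With IFNg, Glb1 had 1703, 1500.3 and 1614 in KO libraries, against 732, 742 and 787 in WT libraries (log2 difference 1.09 ± 0.072 SE, adjusted p = 1.34e-10). With IL4, Glb1 had 1583, 1645 and 1649 in KO libraries, against 799, 811 and 835 in WT libraries (log2 difference 0.995 ± 0.072 SE, adjusted p = 2.63e-10). No KO library of Glb1 fell within the WT range in any treatment. Glb1 lies at chr9:114401076-114474898 (GRCm38, plus strand), and the gene Tmppe overlaps it on the same strand. Tmppe averaged 1161 in KO control and 1117 in WT control libraries, and 460.2 in KO LPS and 568 in WT LPS libraries. Its log2 difference was 0.054 in control, -0.32 in LPS (adjusted p = 0.0243), -0.048 in IFNg and -0.054 in IL4 cultures, none of them called higher. The part of Tmppe in the reads of Glb1 was not tested.

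Gusb, the beta-glucuronidase, differed by 0.30 in control, 0.20 in LPS, 0.35 in IFNg and 0.26 in IL4 cultures (adjusted p = 5.20e-05, 0.00255, 5.96e-06 and 0.000294, in that order). Gla, the alpha-galactosidase that clears globotriaosylceramide, differed by 0.14 in control, 0.39 in LPS, 0.38 in IFNg and 0.24 in IL4 cultures, with adjusted p of 0.0493, 3.45e-07, 8.33e-07 and 0.000338. The control call of Gla was lost in 18 of the 24 fits that left out 1 library (adjusted p up to 0.229). Lipa, the acid lipase that frees cholesterol and fatty acids from lipoproteins, had 30671, 33010.2 and 33736 in KO libraries, against 21589.6, 23205 and 23132 in WT libraries with IFNg (log2 difference 0.52 ± 0.056 SE, adjusted p = 3.49e-07). With LPS, Lipa had 34753, 39989 and 38118 in KO libraries, against 29436, 29771 and 32275 in WT libraries. In control cultures Lipa had 72923, 69464 and 75743 in KO libraries, against 69230.1, 69502 and 68122 in WT libraries (log2 difference 0.076 ± 0.056 SE, adjusted p = 0.653). KO and WT libraries of Lipa were thus well separated with IFNg, and the difference was 0.30 with LPS and 0.25 with IL4. Hexa, the alpha subunit of beta-hexosaminidase, was called with IFNg (0.17) and IL4 (0.22), and the IFNg call was lost without KO IFNg replicate 1 or 3 or WT IFNg replicate 1 or 2 (adjusted p up to 0.0790). Neu1, the sialidase, Gaa, the acid alpha-glucosidase, Tpp1, a tripeptidyl peptidase, and Asah1, the acid ceramidase, were called in no treatment. Their log2 differences ranged from -0.14 for Asah1 in control cultures to 0.21 for Gaa with IFNg. On average over the 4 treatments Tpp1 was called higher (0.092), a value of -0.0033 when libraries were scaled to equal sums.

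Of the 3 lumenal cofactors, 2 rose in KO control, LPS and IFNg cultures and 1 with IL4. Psap, the precursor of the saposins that lift lipids to their hydrolases, had 474372, 489627 and 440617 in KO libraries, against 354357, 363465 and 383439 in WT libraries in control cultures (log2 difference 0.35 ± 0.067 SE, adjusted p = 0.000968). It differed by 0.31 with LPS, 0.44 with IFNg and 0.086 with IL4, where it was not called (adjusted p = 0.592). Npc2, the soluble cholesterol carrier, had 55178, 56937 and 53936 in KO libraries, against 39627, 40595 and 39965 in WT libraries with IL4 (log2 difference 0.47 ± 0.044 SE, adjusted p = 2.44e-08). The KO libraries of Npc2 were all higher, and its difference was 0.24 with LPS, 0.30 with IFNg and 0.14 in control cultures, a call lost in 17 of the 24 fits that left out 1 library (adjusted p up to 0.173). Grn, the precursor of the granulins, differed by -0.13 to 0.088 over the 4 treatments and was called in none.

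Of the 8 membrane proteins, 0 were called in control or LPS cultures, and 2 rose with IFNg and 2 with IL4. Without KO LPS replicate 1, Lamp2 was called higher with LPS (0.28, adjusted p = 0.0210). Scarb2, the receptor that carries beta-glucocerebrosidase to the lysosome, had 3360.1, 3091 and 3053 in KO libraries, against 2119.7, 2280.0 and 2183 in WT libraries with IL4 (log2 difference 0.53 ± 0.051 SE, adjusted p = 4.39e-08). Its difference was 0.13 in control (adjusted p = 0.161), 0.13 in LPS and -0.017 in IFNg cultures. Lamp2, one of the main wall glycoproteins, was called with IL4 (log2 difference 0.29 ± 0.083 SE, adjusted p = 0.0232), a call lost without KO IL4 replicate 1 or 3 or WT IL4 replicate 1 or 3 (adjusted p up to 0.140). With IFNg, Cd63, a tetraspanin, rose by 0.35 and Npc1, the membrane partner of Npc2 in cholesterol export, by 0.25 on the log2 scale, and the Cd63 call was lost without KO IFNg replicate 2 (adjusted p = 0.0693). Lamp1, the other main wall glycoprotein, had 62235, 62951 and 62910.1 in KO libraries, against 67229, 68680.0 and 67172 in WT libraries in control cultures (log2 difference -0.11 ± 0.041 SE, adjusted p = 0.141). It was below WT in all 4 treatments without a call in any, and its average difference of -0.067 was called (adjusted p = 0.0208), but not without KO LPS replicate 1 (adjusted p = 0.0596). Mcoln1, the calcium channel TRPML1 that feeds back on Tfeb, had 1856, 1974 and 1861 in KO libraries, against 1845, 1824 and 1976 in WT libraries in control cultures (log2 difference 0.012 ± 0.055 SE, adjusted p = 0.999). With LPS, Mcoln1 had 1299, 1224 and 1330.5 in KO libraries, against 1239, 1304 and 1191 in WT libraries (log2 difference 0.045 ± 0.055 SE, adjusted p = 0.622). Its KO and WT libraries overlapped in both states, with differences of -0.031 and -0.013 with IFNg and IL4. Cd68 and Laptm5, markers of macrophage and haematopoietic lysosomes, were called in no treatment.

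Among the 4 proton pump subunits, Atp6v0d2 carried most of the genotype difference. It encodes the d subunit isoform of the membrane sector that is restricted to few cell types, among them osteoclasts and macrophages, whereas Atp6v0d1 encodes the widespread isoform. Atp6v0d2 had 33307, 32558 and 35723 in KO libraries, against 22731, 22847 and 21779 in WT libraries in control cultures (log2 difference 0.59 ± 0.063 SE, adjusted p = 3.76e-07). With LPS, Atp6v0d2 had 11954, 12987 and 11840.4 in KO libraries, against 6967, 7015 and 8085 in WT libraries (log2 difference 0.74 ± 0.063 SE, adjusted p = 5.22e-09). KO libraries were higher in both states although the level with LPS was far below that of control cultures. With IFNg, Atp6v0d2 had 16007, 17548 and 17396 in KO libraries, against 8666, 9940.1 and 9837 in WT libraries (log2 difference 0.84 ± 0.063 SE, adjusted p = 1.08e-09). With IL4, Atp6v0d2 had 47331, 42944 and 46183 in KO libraries, against 34377, 34960.2 and 35121 in WT libraries (log2 difference 0.38 ± 0.063 SE, adjusted p = 0.000119). The genotypes did not overlap in any treatment. The 8 osteoclast genes summed to 5688 to 6072 in KO LPS and 4347 to 5029 in WT LPS libraries, and to 1834 to 2108 in KO IFNg and 1716 to 1823 in WT IFNg libraries. Most of the sum with LPS was the phosphatase gene Acp5. It averaged 4688 in KO LPS and 3835 in WT LPS libraries, against 284 in KO control and 197 in WT control libraries. Of the 8, 1 rose and 1 fell in KO control, 3 rose and 1 fell in KO LPS, and 1 fell in each of KO IFNg and KO IL4 cultures. The shares of all tested genes called were 7.16% in control, 22.2% in LPS, 9.05% in IFNg and 9.29% in IL4 cultures. Calcr, the calcitonin receptor that defines mature osteoclasts, had 0 reads in the control and IL4 groups of both genotypes. All 8 genes of the list, Calcr included, had reads in the KO LPS, WT LPS and WT IFNg groups. The part of osteoclasts in the Atp6v0d2 and Ctsk results was not tested. Atp6v1a, the catalytic subunit of the cytosolic sector, had 31162, 36766 and 34900.4 in KO libraries, against 23998, 23279.9 and 27504 in WT libraries with LPS (log2 difference 0.46 ± 0.068 SE, adjusted p = 1.67e-05). It differed by 0.30 with IFNg and was not called in control or IL4 cultures (0.086 and 0.088). Atp6v0d1 had 2481, 2937 and 2934 in KO libraries, against 3159, 3197 and 3028 in WT libraries with LPS (log2 difference -0.17 ± 0.055 SE, adjusted p = 0.0269). This was the one lower call of the pump, and it was lost without KO LPS replicate 1 or WT LPS replicate 1 or 2 (adjusted p up to 0.221) and in edgeR and DESeq2. Atp6v1h, a regulatory subunit, was called in no treatment with all libraries fitted, but was called higher with LPS without KO LPS replicate 1 (0.26, adjusted p = 0.0237).

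In the deposited scaling, the 3 transcription factors did not share a genotype difference. With equal sums, all 3 were called lower in KO cells with LPS (median log2 difference -0.42). Tfeb had 70.9, 42.4 and 52.6 in KO libraries, against 118, 133 and 75.0 in WT libraries with LPS (log2 difference -0.95 ± 0.20 SE, adjusted p = 0.00124). The value of KO LPS replicate 1 rests on 3 reads, and without that library the difference was -1.14 (adjusted p = 0.000135). With IFNg, Tfeb had 730.2, 527 and 628 in KO libraries, against 435, 374 and 378 in WT libraries (log2 difference 0.66 ± 0.20 SE, adjusted p = 0.0439). This call was lost in 10 of the 24 fits that left out 1 library (adjusted p up to 0.199). Tfeb was thus lower in KO cells with LPS and higher with IFNg, while its control and IL4 differences of 0.093 and -0.41 were not called (adjusted p = 0.955 and 0.285). Control libraries of Tfeb held 819, 946 and 717 in KO libraries, against 666, 679.7 and 1011 in WT libraries, and IL4 libraries 557, 841 and 757 in KO libraries, against 944, 889 and 987 in WT libraries. Tfe3, the most evenly expressed of the 3, had 3237, 2686 and 2546 in KO libraries, against 3583, 3509 and 2997 in WT libraries with LPS (log2 difference -0.26 ± 0.072 SE, adjusted p = 0.0124). The KO and WT ranges of Tfe3 overlapped there, and the call was lost without KO LPS replicate 3 or WT LPS replicate 1 or 2 (adjusted p up to 0.0785) and when gene medians were centred. In control cultures Tfe3 had 3213, 3238 and 3015 in KO libraries, against 2935, 3121 and 2887 in WT libraries, with a difference of 0.082 that was not called. With IFNg it had 2931, 2611 and 2736 in KO libraries, against 2738, 2629.8 and 2759 in WT libraries, and with IL4 3010.2, 3114 and 3134 in KO libraries, against 3436, 3404 and 3332 in WT libraries. Neither difference was called (0.025 and -0.14). Mitf, best known as the regulator of melanocytes and osteoclasts, had 3424, 3078 and 3683 in KO libraries, against 2722, 2854 and 2652 in WT libraries in control cultures (log2 difference 0.30 ± 0.071 SE, adjusted p = 0.00654). That call was lost without KO control replicate 3 (adjusted p = 0.0633). With IL4, Mitf had 5188, 4551 and 4941 in KO libraries, against 5624, 5376 and 5382 in WT libraries. Its differences with LPS, IFNg and IL4 were -0.016, 0.13 and -0.16, none of them called. Sqstm1, the p62 adaptor that tags cargo for autophagy, had 24463, 22106 and 23501 in KO libraries, against 14019, 13056 and 14076 in WT libraries with IFNg (log2 difference 0.77 ± 0.061 SE, adjusted p = 3.04e-09). With LPS, Sqstm1 had 34776, 34928 and 35236 in KO libraries, against 25453, 25694 and 22641 in WT libraries (log2 difference 0.51 ± 0.061 SE, adjusted p = 1.06e-06). KO libraries of Sqstm1 were all higher in both states, and the difference was 0.28 with IL4 and 0.17 in control cultures, where it was not called (adjusted p = 0.131).

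**Figure D3:**
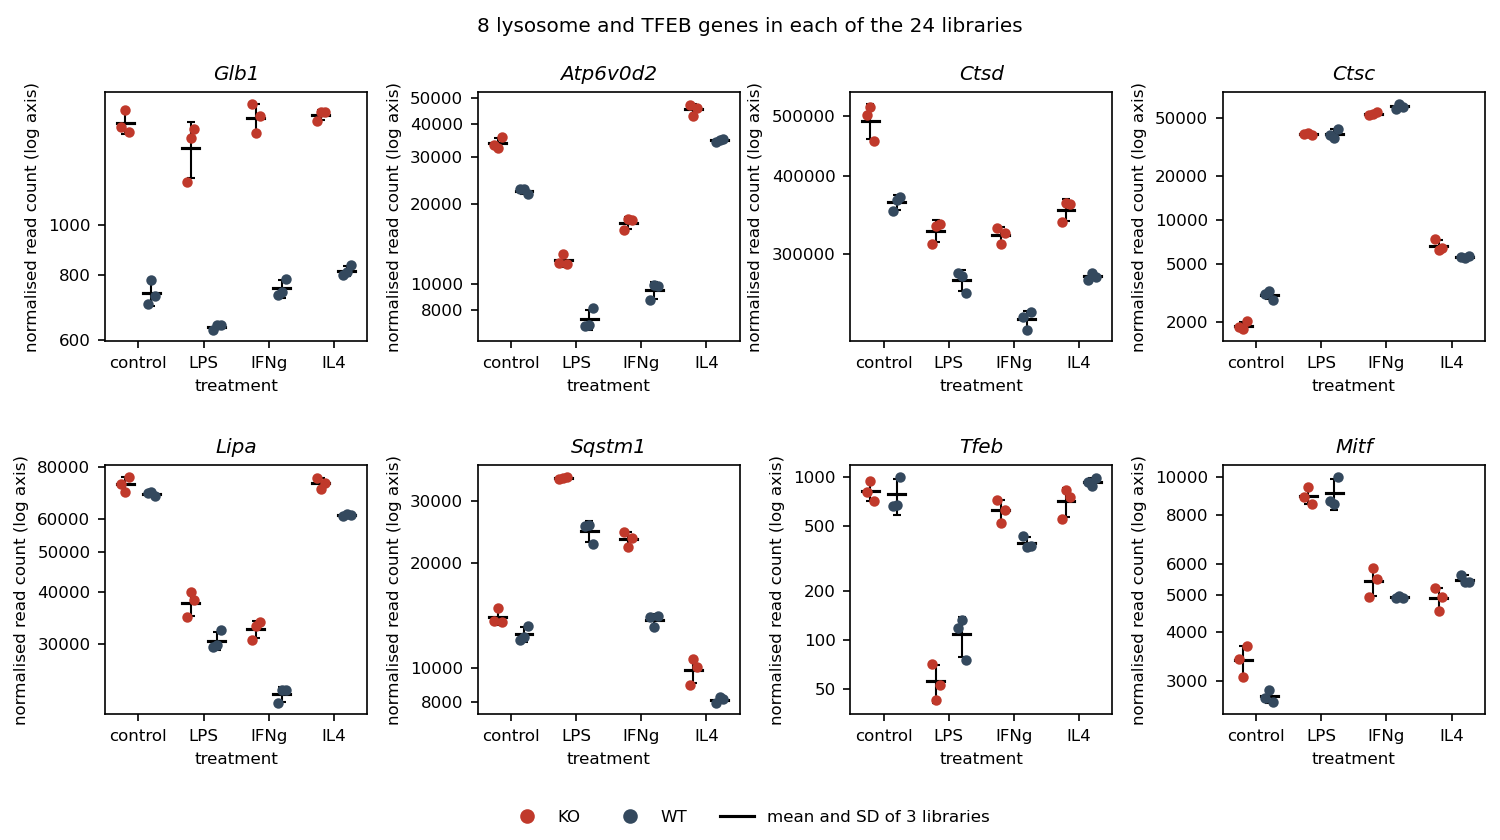
Normalised read count of Glb1, Atp6v0d2, Ctsd, Ctsc, Lipa, Sqstm1, Tfeb and Mitf in each library on a log axis, with KO (red) left of WT (blue) in each treatment; points are libraries, and black marks are the mean and SD (n = 3). Glb1 and Atp6v0d2 are separate between KO and WT in all 4 treatments, Ctsc is lower in KO libraries in control cultures, and Tfeb is lowest with LPS in both genotypes.

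More of the 37 genes were called between LPS or IFNg and control cultures than between genotypes, and with these stimuli more fell than rose. Against control, LPS raised 11 and lowered 20 of the 37 genes in KO cells and raised 12 and lowered 21 in WT cells, where 57.0% (24.5% higher and 32.5% lower) and 53.3% (25.5% higher and 27.8% lower) of all genes were called. IFNg raised 12 and lowered 14 in KO cells and raised 8 and lowered 18 in WT cells, against 46.0% (22.3% and 23.7%) and 45.1% (22.5% and 22.6%) of all genes called. The share of the 37 genes called lower, 54.1% and 56.8% with LPS in KO and WT cells and 37.8% and 48.6% with IFNg, stood above that of all genes in each of these comparisons. IL4 raised 11 and lowered 10 in KO cells and raised 10 and lowered 9 in WT cells, against 23.2% (12.6% and 10.5%) and 20.1% (10.6% and 9.56%) of all genes called. Scaled to equal sums, the lowered genes were more: LPS then raised 3 and lowered 31 in KO cells and raised 3 and lowered 32 in WT cells. IFNg then raised 6 and lowered 30 in KO cells and raised 5 and lowered 31 in WT cells, while IL4 raised 11 and lowered 11 in KO and raised 10 and lowered 10 in WT cells. Comparisons of one genotype share their control libraries, so the values for LPS, IFNg and IL4 are given side by side.

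All 9 of the other hydrolases fell with LPS in both genotypes. Neu1 had 756, 731 and 806 in KO LPS libraries, against 1907, 1973 and 1811 in KO control libraries (log2 difference -1.31 ± 0.072 SE, adjusted p = 5.57e-14). In WT cells Neu1 had 872, 909.6 and 757 in WT LPS libraries, against 1903, 1824 and 2115 in WT control libraries (log2 difference -1.20 ± 0.072 SE, adjusted p = 3.36e-13). The treated and control libraries of Neu1 were far apart in both genotypes, and its change with IFNg was -0.35 in KO and -0.58 in WT cells. Lipa had 30671, 33010.2 and 33736 in KO IFNg libraries, against 72923, 69464 and 75743 in KO control libraries (log2 difference -1.16 ± 0.056 SE, adjusted p = 5.39e-15). In WT cells Lipa had 21589.6, 23205 and 23132 in WT IFNg libraries, against 69230.1, 69502 and 68122 in WT control libraries (log2 difference -1.61 ± 0.056 SE, adjusted p = 7.56e-18). With LPS its change was -0.95 in KO and -1.18 in WT cells, so that the acid lipase was among the most lowered genes with either stimulus. Gaa had 1512, 1475 and 1835 with LPS in KO cells, against 3134, 3556 and 2759 in KO control cells. In WT cells Gaa had 1847, 1879 and 1342 with LPS, against 2493, 2533 and 3349 in WT controls. Gaa fell, with log2 changes of -0.97 ± 0.14 SE in KO and -0.73 ± 0.14 SE in WT cells (adjusted p = 1.75e-06 and 9.15e-05). Gusb changed by -0.72 in KO and -0.61 in WT cells with LPS. With equal sums all 9, Glb1 included, were again called lower with LPS, with medians of -1.28 in KO and -1.19 in WT cells. In the deposited scaling Glb1, the gene with the largest genotype difference, changed less with LPS. Its values were -0.17 in KO and -0.21 in WT cells (adjusted p = 0.0466 and 0.0154), and the groups overlapped in KO cells. The KO call was lost in 16 of the 24 fits that left out 1 library (adjusted p up to 0.393) and the WT call without WT control replicate 2 (adjusted p = 0.0829). With IFNg, 1 of the 9 rose and 4 fell in KO cells, and 1 rose and 6 fell in WT cells. The riser was Asah1, at 0.27 in KO and 0.18 in WT cells, values that turned to -0.17 and -0.27 with equal sums.

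The cathepsins divided by treatment. Ctsc rose more than any other of the 37 genes with LPS and IFNg. It had 52349.8, 53648 and 55158 in KO IFNg libraries, against 1840.4, 1796 and 2022 in KO control libraries (log2 difference 4.83 ± 0.064 SE, adjusted p = 4.93e-26). In WT cells it had 58261, 63068 and 59685 in WT IFNg libraries, against 3125, 3244 and 2841 in WT control libraries (log2 difference 4.30 ± 0.064 SE, adjusted p = 5.28e-25). With LPS its change was 4.37 in KO and 3.67 in WT cells, and with IL4 1.82 in KO and 0.86 in WT cells, the same direction in every treatment. Ctsz had 56033, 65517 and 64519.7 with IL4 in KO cells, against 32620.5, 35828 and 31214 in KO control cells. In WT cells Ctsz had 48021, 48912 and 51016 with IL4, against 24710.0, 25189.8 and 26708 in WT controls. Ctsz rose, with log2 changes of 0.90 ± 0.071 SE in KO and 0.95 ± 0.071 SE in WT cells (adjusted p = 3.01e-10 and 1.42e-10). It rose with all 3 stimuli, by 0.65 in KO and 0.75 in WT cells with IFNg and 0.47 in KO and 0.65 in WT cells with LPS, but the LPS values turned to -0.39 and -0.11 with equal sums. Ctsh had 11158, 11157 and 11239 with IFNg in KO cells, against 6247, 6920.3 and 6591 in KO control cells. In WT cells Ctsh had 9235, 9007 and 9418 with IFNg, against 5345, 5358 and 5246 in WT controls. Ctsh rose, with log2 changes of 0.77 ± 0.040 SE in KO and 0.79 ± 0.040 SE in WT cells (adjusted p = 2.72e-14 and 1.25e-14). With LPS the rise of Ctsh was 0.39 in KO and 0.26 in WT cells, values that turned to -0.48 and -0.51 with equal sums. Ctsk had 2299, 2406 and 2463 with IFNg in KO cells, against 4332, 4207 and 4048 in KO control cells. In WT cells Ctsk had 1811, 1773 and 1905 with IFNg, against 3809.7, 3648 and 3661 in WT controls. Ctsk fell, with log2 changes of -0.81 ± 0.049 SE in KO and -1.02 ± 0.049 SE in WT cells (adjusted p = 6.22e-13 and 6.79e-15). Ctsk fell with every stimulus, and its level with LPS and IL4 changed by -0.39 in KO and -0.41 in WT cells and by -0.38 in KO and -0.56 in WT cells. Ctsd had 337341, 362808 and 360777 with IL4 in KO cells, against 502310.1, 517738 and 455649 in KO control cells. In WT cells Ctsd had 272485, 279759 and 274749 with IL4, against 352238, 366462 and 370438 in WT controls. Ctsd fell, with log2 changes of -0.47 ± 0.065 SE in KO and -0.40 ± 0.065 SE in WT cells (adjusted p = 3.10e-06 and 4.44e-05). It also fell with LPS, at -0.59 in KO and -0.42 in WT cells, and with IFNg, at -0.61 in KO and -0.63 in WT cells. Ctsb had 355645, 365330.4 and 360835 with IL4 in KO cells, against 485904, 487767 and 476284 in KO control cells. In WT cells Ctsb had 348569.8, 358045 and 341579 with IL4, against 467134, 466566 and 469219.6 in WT controls. Ctsb fell, with log2 changes of -0.42 ± 0.060 SE in KO and -0.42 ± 0.060 SE in WT cells (adjusted p = 5.65e-06 and 7.22e-06). No IL4 library of Ctsb reached its control range in either genotype. Ctsl fell with IFNg, at -0.72 in KO and -0.91 in WT cells, and changed by 0.40 in KO and 0.16 in WT cells with LPS, values that turned to -0.47 and -0.60 with equal sums. Ctss changed by 0.20 in KO and 0.19 in WT cells with LPS, and these values too turned, to -0.67 and -0.58.

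Of the cofactors and membrane proteins, the 2 cholesterol transporters went opposite ways with LPS in the deposited scaling, though not with equal sums. Npc2 had 69954, 73314 and 74390.5 in KO LPS libraries, against 40850.3, 40326 and 39719 in KO control libraries (log2 difference 0.85 ± 0.044 SE, adjusted p = 1.55e-14). In WT cells Npc2 had 60351, 61129.6 and 63276 in WT LPS libraries, against 37582, 35883 and 35945 in WT control libraries (log2 difference 0.76 ± 0.044 SE, adjusted p = 1.69e-13). This rise was not kept with equal sums, where the values were -0.019 in KO and -0.0092 in WT cells. Npc1 had 4938, 5642 and 5669 in KO LPS libraries, against 11974, 11867 and 12072 in KO control libraries (log2 difference -1.15 ± 0.051 SE, adjusted p = 6.86e-16). In WT cells Npc1 had 5515, 5166 and 5333 in WT LPS libraries, against 10855, 11479.9 and 11247 in WT control libraries (log2 difference -1.07 ± 0.051 SE, adjusted p = 3.11e-15). Its LPS and control libraries did not overlap, and with IFNg it changed by -0.96 in KO and -1.11 in WT cells. Scarb2 had 3931, 4091 and 4228 with IFNg in KO cells, against 3084, 3003 and 2997 in KO control cells. In WT cells Scarb2 had 3857, 4238 and 4305 with IFNg, against 2657, 2894 and 2738 in WT controls. Scarb2 rose, with log2 changes of 0.43 ± 0.051 SE in KO and 0.58 ± 0.051 SE in WT cells (adjusted p = 1.31e-07 and 7.44e-10), and the KO value turned to -0.011 with equal sums. With IL4 Scarb2 fell in WT cells (-0.33) and its KO change of 0.064 was not called. Cd63 had 13179, 14009.6 and 12846 with IL4 in KO cells, against 11149, 10711 and 10349 in KO control cells. In WT cells Cd63 had 13313, 14584 and 12800.0 with IL4, against 11466, 9874 and 10131 in WT controls. Cd63 rose, with log2 changes of 0.31 ± 0.084 SE in KO and 0.37 ± 0.084 SE in WT cells (adjusted p = 0.00714 and 0.00180). Its IL4 libraries all lay above the controls of the same genotype. Laptm5 had 19893, 23104 and 23035 with IL4 in KO cells, against 32372, 33782 and 29258 in KO control cells. In WT cells Laptm5 had 22332, 22385 and 22000.1 with IL4, against 28879.8, 28904 and 33058 in WT controls. Laptm5 fell, with log2 changes of -0.53 ± 0.071 SE in KO and -0.44 ± 0.071 SE in WT cells (adjusted p = 2.22e-06 and 3.50e-05). IL4 thus raised the tetraspanin and lowered Laptm5. Mcoln1 had 1299, 1224 and 1330.5 with LPS in KO cells, against 1856, 1974 and 1861 in KO control cells. In WT cells Mcoln1 had 1239, 1304 and 1191 with LPS, against 1845, 1824 and 1976 in WT controls. Mcoln1 fell, with log2 changes of -0.56 ± 0.055 SE in KO and -0.60 ± 0.055 SE in WT cells (adjusted p = 2.93e-09 and 1.16e-09). It also fell with IFNg, at -0.38 in KO and -0.34 in WT cells. With IL4 its change was -0.16 in KO and -0.14 in WT cells, called only in KO cells (adjusted p = 0.0330). That call was lost without KO control replicate 1 or 2 or KO IL4 replicate 1 (adjusted p up to 0.202).

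The proton pump subunits responded unequally. Atp6v0d2 fell with LPS, where it had 11954, 12987 and 11840.4 in KO LPS libraries, against 33307, 32558 and 35723 in KO control libraries (log2 difference -1.47 ± 0.063 SE, adjusted p = 4.04e-16). In WT cells it had 6967, 7015 and 8085 in WT LPS libraries, against 22731, 22847 and 21779 in WT control libraries (log2 difference -1.61 ± 0.063 SE, adjusted p = 6.16e-17). It also fell with IFNg, at -0.996 in KO and -1.25 in WT cells, and rose with IL4. Atp6v0d2 had 47331, 42944 and 46183 with IL4 in KO cells, against 33307, 32558 and 35723 in KO control cells. In WT cells Atp6v0d2 had 34377, 34960.2 and 35121 with IL4, against 22731, 22847 and 21779 in WT controls. Atp6v0d2 rose, with log2 changes of 0.43 ± 0.063 SE in KO and 0.63 ± 0.063 SE in WT cells (adjusted p = 1.04e-05 and 2.59e-08). The restricted d isoform was highest with IL4 and lowest with LPS in both genotypes. Atp6v1a fell with every stimulus, most with IFNg, where it had 20331, 23266 and 22902 in KO IFNg libraries, against 41563, 38348 and 42227 in KO control libraries (log2 difference -0.88 ± 0.068 SE, adjusted p = 5.38e-11), and changed by -1.09 in WT cells. Atp6v1h rose with LPS, by 0.71 in KO and 0.49 in WT cells, values that turned to -0.16 and -0.28 with equal sums. Atp6v0d1 fell with LPS, at -0.68 in KO and -0.50 in WT cells.

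Of the transcription factors, Tfeb fell with LPS and Mitf rose. Tfeb had 70.9, 42.4 and 52.6 in KO LPS libraries, against 819, 946 and 717 in KO control libraries (log2 difference -3.90 ± 0.20 SE, adjusted p = 1.87e-14). In WT cells Tfeb had 118, 133 and 75.0 in WT LPS libraries, against 666, 679.7 and 1011 in WT control libraries (log2 difference -2.86 ± 0.20 SE, adjusted p = 9.49e-12). This was the deepest fall of the 37 genes, and no LPS library reached the control range. With IFNg Tfeb fell in WT cells (-0.96), and its KO change was -0.40 (adjusted p = 0.118); the IL4 changes were -0.22 in KO and 0.28 in WT cells, neither called. Mitf had 8907, 9468 and 8572 in KO LPS libraries, against 3424, 3078 and 3683 in KO control libraries (log2 difference 1.41 ± 0.071 SE, adjusted p = 1.01e-14). In WT cells Mitf had 8687, 8554 and 10048 in WT LPS libraries, against 2722, 2854 and 2652 in WT control libraries (log2 difference 1.73 ± 0.071 SE, adjusted p = 1.73e-16). LPS libraries of Mitf lay far above the controls, and its change with IFNg was 0.68 in KO and 0.85 in WT cells. Mitf had 5188, 4551 and 4941 with IL4 in KO cells, against 3424, 3078 and 3683 in KO control cells. In WT cells Mitf had 5624, 5376 and 5382 with IL4, against 2722, 2854 and 2652 in WT controls. Mitf rose, with log2 changes of 0.53 ± 0.071 SE in KO and 0.99 ± 0.071 SE in WT cells (adjusted p = 2.48e-06 and 7.00e-11). Tfe3 changed by -0.17 in KO and 0.17 in WT cells with LPS, by -0.19 in KO and -0.14 in WT cells with IFNg and by -0.032 in KO and 0.19 in WT cells with IL4. Of these 6 values only the KO IFNg fall was called, and it was lost without KO control replicate 1 or 2 or KO IFNg replicate 2 or 3 (adjusted p up to 0.133). Sqstm1 rose with LPS, where it had 34776, 34928 and 35236 in KO LPS libraries, against 13592, 14842 and 13551 in KO control libraries (log2 difference 1.32 ± 0.061 SE, adjusted p = 1.68e-15). In WT cells the change was 0.98. With IFNg Sqstm1 rose in KO cells (0.74) and had a WT change of 0.14 (adjusted p = 0.0730), and with IL4 it fell. Sqstm1 had 8948, 10569 and 10038 with IL4 in KO cells, against 13592, 14842 and 13551 in KO control cells. In WT cells Sqstm1 had 7947, 8225 and 8156 with IL4, against 12036, 12217 and 13167 in WT controls. Sqstm1 fell, with log2 changes of -0.51 ± 0.061 SE in KO and -0.62 ± 0.061 SE in WT cells (adjusted p = 4.55e-07 and 2.16e-08).

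**Figure D4:**
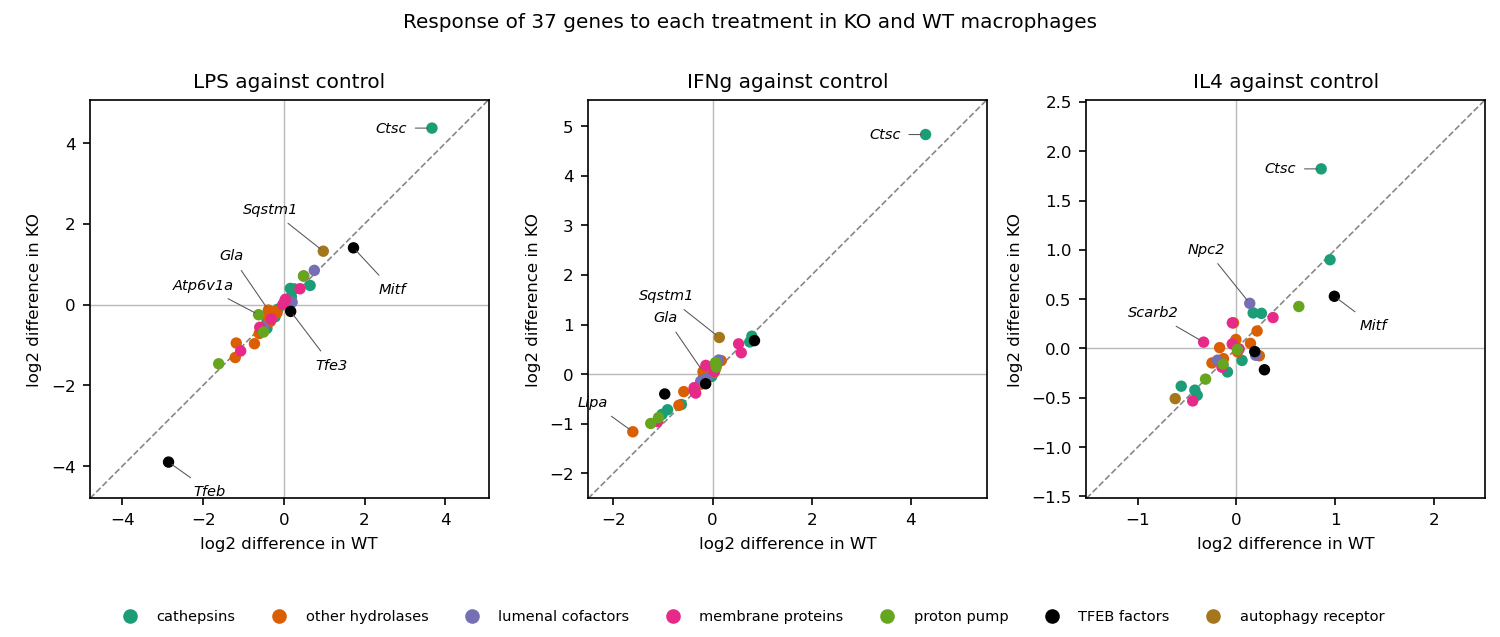
The log2 change with LPS, IFNg and IL4 against control for the 37 genes, with the value in KO cells on the vertical axis and in WT cells on the horizontal axis; each point is a gene coloured by role, the dashed line marks equal change in both genotypes, and named genes passed the interaction test. Most genes lie near the line, Ctsc is at the upper right with LPS and IFNg, and Tfeb is at the lower left with LPS, below the line.

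The interaction terms tested whether the response to a stimulus differed between KO and WT cells. With LPS, 4 of the 37 genes had a higher and 3 a lower response in KO cells, against 8.79% of all genes called (4.29% higher and 4.5% lower). With IFNg, 4 were higher and 0 lower, against 2.5% of all genes (1.32% and 1.18%), and with IL4, 3 were higher and 1 lower, against 3.61% (2.45% and 1.15%). The split with LPS was 2 higher and 8 lower with equal sums and 6 higher and 1 lower with medians centred, so it depended on scaling, and the count was 4 without WT control replicate 1. Ctsc was called with all 3 stimuli, at 0.70 ± 0.091 SE with LPS, 0.53 ± 0.091 with IFNg and 0.96 ± 0.091 with IL4 (adjusted p = 8.58e-06, 0.000636 and 7.21e-08). These 3 terms share the control libraries in which Ctsc was lower in KO cells. Sqstm1 responded more in KO cells to LPS (log2 difference 0.34 ± 0.087 SE, adjusted p = 0.0113) and to IFNg (log2 difference 0.60 ± 0.087 SE, adjusted p = 9.03e-05), and the LPS term was not called with equal sums (adjusted p = 0.104). Lipa fell less in KO cells with IFNg (log2 difference 0.44 ± 0.079 SE, adjusted p = 0.00109), and Atp6v1a fell less with LPS (log2 difference 0.37 ± 0.095 SE, adjusted p = 0.0127). Tfeb fell further in KO cells with LPS (log2 difference -1.05 ± 0.29 SE, adjusted p = 0.0219), a call lost in 6 of the 24 fits that left out 1 library (adjusted p up to 0.0782). Mitf rose less in KO cells with IL4 (log2 difference -0.46 ± 0.10 SE, adjusted p = 0.00616), while Scarb2 (0.40) and Npc2 (0.32) responded more. The LPS terms of Tfe3 (-0.34) and Mitf (-0.32) were lost in 9 and 16 of the 24 fits that left out 1 library, and the IFNg term of Gla (0.24) in 8.

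Other genes of the same pathways, 119 in all, were listed to set the 37 in context. Between KO and WT, 4.11% of all tested genes were called higher and 3.05% lower in control cultures. These shares were 9.7% and 12.5% with LPS, 4.83% and 4.21% with IFNg, and 6.14% and 3.14% with IL4. The counts of each list that follows stand beside them. Among 33 other lysosomal hydrolases and their aids, 5 rose and 6 fell in KO control cultures, 5 rose and 9 fell with LPS, 5 rose and 5 fell with IFNg and 5 rose and 3 fell with IL4. Prcp, a prolylcarboxypeptidase, averaged 8481 ± 425 in KO libraries and 1571 ± 25.4 in WT libraries with IFNg (SD, n = 3 each; log2 difference 2.43 ± 0.054 SE, adjusted p = 2.09e-19). Its difference was 0.43 in control, 1.64 in LPS and 0.41 in IL4 cultures. Hgsnat, the enzyme that acetylates heparan sulfate at the lysosomal wall, averaged 2656 ± 112 in KO libraries and 5785 ± 38.3 in WT libraries in control cultures (log2 difference -1.12 ± 0.046 SE, adjusted p = 2.10e-14). It was lower in KO cells with LPS (-0.70), IFNg (-0.53) and IL4 (-0.82) as well. Gm2a, the activator protein of ganglioside breakdown, rose in KO control cultures (0.44). Idua, the alpha-L-iduronidase, fell in KO cells with LPS (-0.91). Acp5, the tartrate-resistant phosphatase on the osteoclast list, averaged 4688 ± 216 in KO LPS libraries and 284 ± 18.0 in KO control libraries, and changed by 4.04 in KO and 4.29 in WT cells with LPS.

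Among 23 other membrane proteins, 5 rose and 1 fell in KO control cultures, 4 rose and 6 fell with LPS, 5 rose and 0 fell with IFNg and 3 rose and 1 fell with IL4. Cd164, a sialomucin also found at the lysosome, was higher in KO cells by 0.72 with LPS, 0.66 with IFNg and 0.48 with IL4. Slc11a1, the metal transporter NRAMP1, fell in KO cells with LPS (log2 difference -0.84 ± 0.086 SE, adjusted p = 8.56e-08). Clcn7, the chloride-proton exchanger, rose with IFNg against control by 2.04 in KO and 2.18 in WT cells, and the channel gene Tpcn1 fell, at -3.85 in KO and -3.78 in WT cells. Of 17 other proton pump genes, 16 were tested: 0 rose and 0 fell in KO control cultures, 4 rose and 0 fell with LPS, 2 rose and 0 fell with IFNg and 1 rose and 1 fell with IL4. Atp6v1e1, a stalk subunit, was higher in KO cells with LPS (log2 difference 0.42 ± 0.041 SE, adjusted p = 5.06e-08). Atp6v0a1, a membrane sector subunit, averaged 19215 ± 726 in KO libraries and 30223 ± 416 in WT libraries with IL4 (log2 difference -0.65 ± 0.055 SE, adjusted p = 3.53e-09). In the pump, then, Atp6v0d2 was higher and Atp6v0a1 lower in KO than in WT cells with IL4. Against control, Atp6v0a1 rose with IL4 in both genotypes, by 0.74 in KO and 1.30 in WT cells. Its genotype by IL4 interaction in limma was -0.56 (adjusted p = 2.60e-05).

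Among 22 genes that control Tfeb, 1 rose and 0 fell in KO control cultures, and 2 rose and 5 fell with LPS. With IFNg 3 rose and 2 fell, and with IL4 2 rose and 1 fell. Over all tested genes, 7.16% were called in control, 22.2% in LPS, 9.05% in IFNg and 9.29% in IL4 cultures. Lamtor1, which anchors the nutrient sensing complex to the lysosome, fell with LPS in KO cells (log2 difference -0.56 ± 0.078 SE, adjusted p = 8.17e-06), as did the small GTPase Rraga (-0.26) and the calcineurin subunit Ppp3ca (-0.29). Tfec, a further factor of the family, averaged 3264 ± 153 in KO LPS libraries and 215 ± 22.9 in KO control libraries, and 2784 ± 144 in WT LPS libraries and 182 ± 5.46 in WT control libraries. It rose with every stimulus, by 3.92 in KO and 3.93 in WT cells with LPS, 2.43 in KO and 2.90 in WT cells with IFNg and 2.16 in KO and 2.13 in WT cells with IL4. Rragd and Flcn, which act in the branch of nutrient signalling that retains Tfeb in the cytosol, fell with LPS, at -3.25 in KO and -3.14 in WT cells and -2.43 in KO and -2.23 in WT cells. Among 6 genes that sort enzymes to lysosomes, 2 rose and 0 fell in KO control cultures, 0 rose and 1 fell with LPS, 2 rose and 0 fell with IFNg and 2 rose and 0 fell with IL4. The receptors Igf2r (0.35) and Sort1 (0.38) rose in KO control cultures. Among 18 autophagy genes, 2 rose and 1 fell in KO control cultures, 3 rose and 5 fell with LPS, 3 rose and 0 fell with IFNg and 3 rose and 0 fell with IL4. Gabarapl1, an Atg8-type protein of the autophagosome, rose in KO cells with IFNg (log2 difference 0.57 ± 0.057 SE, adjusted p = 1.31e-07) and the receptor Nbr1 with LPS (log2 difference 0.49 ± 0.047 SE, adjusted p = 3.47e-08), while Uvrag fell in KO cells with LPS (-0.78).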

How the data were processed

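Total RNA of 24 BMDM libraries was sequenced. The authors deposited 1 table of signal values, read counts per gene divided by a size factor per library; the file states no unit, and whole reads were recovered from 100% of the values within 0.05 reads. The submitters' processing notes name TopHat2 2.2.1, Cufflinks 2.2.1 and Cuffdiff with mm10, without roles. The 18637 genes that reached a value of 1 in 3 or more libraries were tested with limma 3.58.1 (R 4.3.3) on log2(value + 1), with an intensity trend, 1 mean per group, all 24 libraries and 16 residual degrees of freedom, over 14 comparisons, each adjusted by Benjamini-Hochberg over all tested genes. The pseudocount understates changes of low genes. On the recovered reads, edgeR 4.0.16 called 1905 genes between KO and WT in control, 3543 in LPS, 2533 in IFNg and 2862 in IL4 cultures. DESeq2 1.42.0 and 35 settings in all were tried, 1 of them, scaling to equal sums, chosen after seeing the data. The procedure was tested on simulated data.

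The 37 genes and the other lists were chosen with earlier results of these data known. Given in full are, per comparison, the called genes with the largest log2 difference whose groups do not overlap, up to 5 in each direction, and Tfeb, Tfe3, Mitf and Mcoln1; up to 3 called genes per other list could be named. Genes named beyond this were chosen after their values were seen. Of 43629 identifiers, 42462 matched GENCODE M21, which gave exon lengths and positions. Promoters are from RefSeq (GRCm38.p6). A single read equals 23.6 normalised reads in KO LPS replicate 1.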

Additional observations from a re-analysis of the deposited data

Results flagged for a closer look

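In all, 15 log2 responses to a stimulus differed between KO and WT cells by the interaction test of limma; a positive value means a higher response in KO cells. Ctsc differed with LPS by 0.70 ± 0.091 SE, with IFNg by 0.53 ± 0.091 SE and with IL4 by 0.96 ± 0.091 SE (adjusted p = 8.58e-06, 0.000636 and 7.21e-08). Sqstm1 differed with LPS by 0.34 ± 0.087 SE and with IFNg by 0.60 ± 0.087 SE (adjusted p = 0.0113 and 9.03e-05). Gla differed with LPS by 0.25 ± 0.061 SE and with IFNg by 0.24 ± 0.061 SE (adjusted p = 0.0100 and 0.0306). Mitf differed with LPS by -0.32 ± 0.10 SE and with IL4 by -0.46 ± 0.10 SE (adjusted p = 0.0483 and 0.00616). With LPS, Tfeb differed by -1.05 ± 0.29 SE, Tfe3 by -0.34 ± 0.10 SE and Atp6v1a by 0.37 ± 0.095 SE (adjusted p = 0.0219, 0.0392 and 0.0127). With IFNg, Lipa differed by 0.44 ± 0.079 SE (adjusted p = 0.00109). With IL4, Scarb2 differed by 0.40 ± 0.073 SE and Npc2 by 0.32 ± 0.062 SE (adjusted p = 0.00107 and 0.00184). The terms of 1 gene share its control libraries, and with equal sums those of Gla and Sqstm1 for LPS did not pass the threshold.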

How the results depend on the processing

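Of 287 single values recomputed under 35 settings (10017 values), 9551 kept their direction and side of the threshold, 388 dropped below it, 49 passed it and 29 turned with the other sign, all 29 with libraries scaled to equal sums; sign changes where neither value passed are not counted. Those 29 log2 values, each with the value in the deposited scaling in parentheses, were, averaged over treatments for KO against WT, Ctsb -0.0036 (0.092), Tpp1 -0.0033 (0.092), Mcoln1 -0.092 (0.0033); for LPS in KO cells, Ctsh -0.48 (0.39), Ctsl -0.47 (0.40), Ctss -0.67 (0.20), Ctsz -0.39 (0.47), Npc2 -0.019 (0.85), Lamp2 -0.16 (0.71), Scarb2 -0.47 (0.39), Atp6v1h -0.16 (0.71); for LPS in WT cells, Ctsh -0.51 (0.26), Ctsl -0.60 (0.16), Ctss -0.58 (0.19), Ctsz -0.11 (0.65), Grn -0.56 (0.21), Npc2 -0.0092 (0.76), Lamp2 -0.27 (0.49), Scarb2 -0.36 (0.40), Atp6v1h -0.28 (0.49), Tfe3 -0.59 (0.17); for IFNg in KO cells, Ctss -0.24 (0.21), Asah1 -0.17 (0.27), Npc2 -0.16 (0.28), Scarb2 -0.011 (0.43), Atp6v0d1 -0.30 (0.14), Atp6v1h -0.21 (0.23); and for IFNg in WT cells, Asah1 -0.27 (0.18), Npc2 -0.32 (0.13). The number of the 37 genes called for KO against WT in control cultures, 13, was 22 with library weights and 7 with only the compared libraries fitted; with LPS, 18 became 5 with only those libraries. The interaction counts were 7 for LPS, but 13 with library weights, 2 with only the compared libraries and 4 without WT control replicate 1; 4 for IFNg, but 9 with library weights and 7 in DESeq2; and 4 for IL4, but 11 with library weights and 7 in DESeq2. Leaving out 1 library gave counts of 10 to 13 for KO against WT in control, 15 to 20 in LPS, 16 to 20 in IFNg, 14 to 16 in IL4 cultures and 22 to 25 on average; 30 to 33, 23 to 28 and 17 to 22 for LPS, IFNg and IL4 in KO cells; 30 to 34, 23 to 27 and 16 to 20 in WT cells; and 4 to 10, 3 to 4 and 4 to 5 for the interactions. The cause of these shifts was not tested, apart from the fewer libraries that set the spread.

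Over all genes, the counts that moved by more than 1.5 times were 1334 for KO against WT in control (3063 with library weights), 4141 in LPS (1021 with only the compared libraries), 1686 in IFNg (3512 with library weights, 2533 in edgeR, 2576 in DESeq2), 1731 in IL4 (4035, 2862 and 2735), 4316 for IL4 in KO (7056 with library weights) and 3749 in WT cells (6125), and for the interactions 1639 with LPS (2755 with library weights, 862 with only the compared libraries), 466 with IFNg (1520 with library weights, 849 in DESeq2) and 672 with IL4 (2338 and 1169). Deviations of same-numbered libraries from their group means correlated at -0.12 to 0.14 over 30 pairs, and 8 of 24 libraries correlated best with their own number. With 3 libraries a group, these values cannot show whether same-numbered libraries shared a mouse or culture. With a replicate block the counts were 11, 17, 18, 16 and 23 for KO against WT in control, LPS, IFNg, IL4 cultures and on average, 32, 26 and 21 for LPS, IFNg and IL4 in KO cells, 33, 25 and 18 in WT cells, and 6, 3 and 4 for the interactions. Depth limits mainly Tfeb, the lowest of the 37 genes, in KO LPS replicate 1.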
